A study of Juglans cathayensis with 6 samples.

Results

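Leucine-rich repeat (LRR) receptor kinases were described in the husk (the fleshy part around the nut) of *Juglans cathayensis*, the Chinese walnut. A gene of the assembled transcriptome was counted as a member when its main protein description held "leucine-rich repeat receptor" or "LRR receptor" and held neither "lectin" nor "cysteine-rich", which gave 230 of 39234 listed genes. The members were chosen by the text of their descriptions and by no measured value, but the family itself was selected on differences in TPM between the varieties that were already known, so its counts of changed genes are a description and are not support for a family-wide change. The study sequenced husk RNA of 2 varieties, one whose freshly cut husk is white and one whose freshly cut husk is brown, with 3 libraries each, to learn about enzymatic browning. All 6 libraries carry a time label of 35 days, and no special treatment was given. The labels name no tree, genotype or event from which the days were counted, and since each colour is a different variety, colour cannot be told apart from any other difference between the varieties.

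Receptors of this family span the plasma membrane. Leucine-rich repeats outside the cell bind a ligand, often a peptide, and a kinase inside passes the signal on, usually together with a co-receptor of the SERK family. Some members sense fragments of microbes and start defence, and others read the plant's own peptides and steer growth, vascular tissue and wall formation. Members were therefore sorted by their descriptions into groups named after Arabidopsis genes of known or related function. Of the 230 members, 227 had a description from *Juglans regia*, the common walnut, 1 was described as a receptor-like protein without the word kinase (CLAVATA2), and 12 were described as inactive kinases. The deposited domain column names at most 1 domain for a member. It named a kinase for 121 members, a leucine-rich repeat for 50 and a malectin domain for 19, while 37 had no entry and 3 had a domain of another kind. Members had a median length of 952.5 bases, from 202 to 4670, against 549 for all listed genes, and 116 were under 1000 bases, so many are pieces of a receptor and not whole transcripts. They fell into 150 assembly clusters (the part of the identifier before the gene number), and 132 members shared a cluster with another member. Alleles, fragments and near-identical family members cannot be separated here, and reads shared by close copies may have been split between them. Lower RNA per cell and fewer cells of a type cannot be told apart in these bulk samples.

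The values are TPM, a relative abundance per transcript length that sums to about the same total in each library, as the authors deposited them. Read depth is not kept by TPM, so no counting interval can be given. Genes at 1 TPM or more numbered 28349 to 33949 in white and 34826 to 35240 in brown libraries. White replicate 2 stood apart, with the lowest of these counts. Husk has no single defining marker, and marker genes of other tissues were read in its place. Genes of photosynthetic cells summed to 5247 to 6357 TPM in white and 3369 to 6273 TPM in brown libraries, with none of 37 past the threshold by limma and 6 at an unadjusted p under 0.05, a level that 21.5% of all tested genes reached. Pollen or stamen genes summed to 761 to 998 and 775 to 843 TPM, with none of 10 past it and 1 at an unadjusted p under 0.05. Secondary wall genes summed to 12.9 to 21.1 and 17.2 to 25.1 TPM, with 1 of 6 higher in brown husk and 2 at an unadjusted p under 0.05 by limma. Seed storage genes summed to 36.2 to 52.0 and 12.3 to 23.9 TPM, with 1 of 2 lower and 2 of 2 at an unadjusted p under 0.05 by limma. No gene of these lists was at 0 in all libraries, and their part in the results below was not tested.

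Members added up to 3688, 2213 and 3182 TPM in white replicates 1, 2 and 3 and to 4136, 4110 and 3953 TPM in brown replicates 1, 2 and 3. The groups did not overlap. The mean was 4066 ± 99.0 TPM for brown and 3028 ± 750 TPM for white husk (SD, n = 3 each), a ratio of 1.34. Without white replicate 2 the ratio was 1.18. That library was the lowest of the 6 for 140 of 226 tested members (61.9%), against 44.4% of all tested genes. Family members took 0.222% to 0.371% of all TPM in white and 0.397% to 0.416% in brown libraries. Most were low, with a median of 5.40 TPM over the 6 libraries against 3.52 for all listed genes. A mean of 10 TPM was reached by 81 members and a mean of 50 TPM by 15, while 143 members reached 1 TPM throughout the 6 libraries.

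In brown husk 27 of 226 tested members were higher and 6 were lower than in white husk. The 27 had brown means of 2.66 to 130 TPM and log2 fold changes of at least 0.77, and they included genes matched to the immune receptor FLS2, its relative At3g47570, the adaptor kinase SOBIR1, the peptide receptors TDR, GSO1 and GSO2, and At3g14840. Of the 6 that were lower, 5 were At3g14840-like and 1 was At3g47570-like. Each gene was tested by limma on log2(TPM + 1) over the 37829 genes that reached 1 TPM in 3 or more libraries, and is said to have risen or fallen at a Benjamini-Hochberg adjusted p under 0.05. Fold changes are brown minus white on that scale, where low genes show less than their change. The background was 3.83% of tested genes higher and 2.17% lower, beside 11.9% and 2.65% of tested members. The same 3.83% and 2.17% are the background for the called counts of every group and list. Scaling moved the split of all genes, from 1450 higher and 819 lower to 1356 and 1153 with TMM factors and to 1259 and 1275 with quantile normalization, while the members had 28 and 6 and then 26 and 8. The 4 members not tested had at most 8.18 TPM in any library. In all 33 members called, the white and brown libraries did not overlap. This was so for 92 tested members in all, 78 of them higher in brown husk, and 14 of them higher in white husk, against a background of 29.1% of tested genes in either direction, 20.2% with brown higher and 8.85% with white higher. The median log2 fold change of tested members was 0.35, beside 0.19 for all tested genes, and 163 members (72.1%) had a positive value, beside 64.3% of all genes. With TMM factors the medians were 0.21 and 0.05, with quantile normalization 0.15 and -0.01, and without white replicate 2 0.15 and 0.06. The count of rises depended on single libraries. It was 11 without white replicate 3, 17, 13 and 10 without brown replicates 1, 2 and 3, and 22 without either white replicate 1 or white replicate 2. The count of falls was 10 without white replicate 2 and 3 without brown replicate 3. Whichever library was dropped, 9 of the 27 rises and 3 of the 6 falls passed again.

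**Figure D1:**
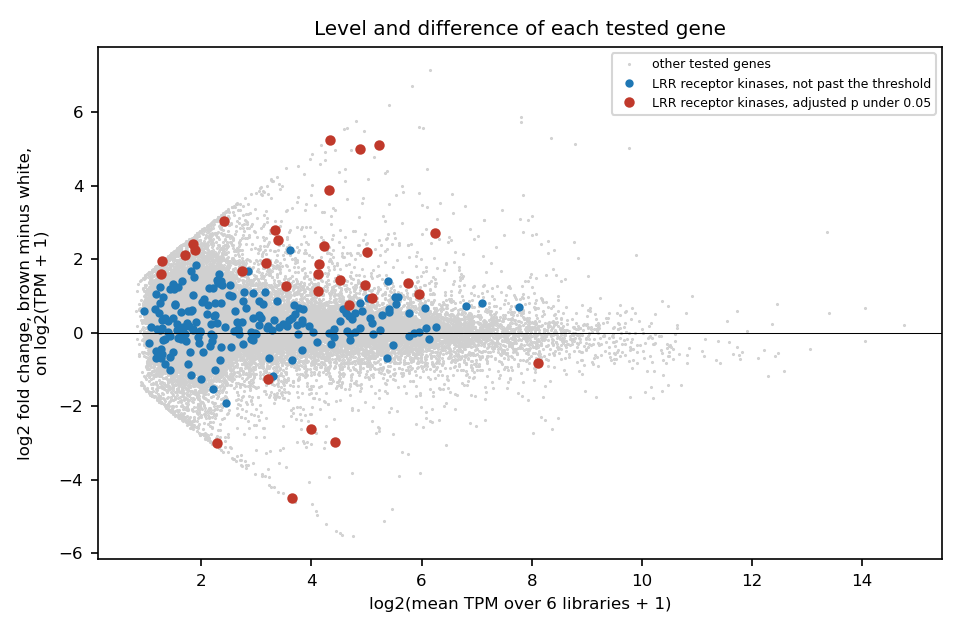
Each point is a tested gene, with the log2 of its mean TPM over the 6 libraries plus 1 on the x axis and the log2 fold change of brown minus white on the y axis. The 33 members past the threshold, in red, lie among 193 members that did not pass, in blue, and 27 of the 33 lie above 0.

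**Figure D2:**
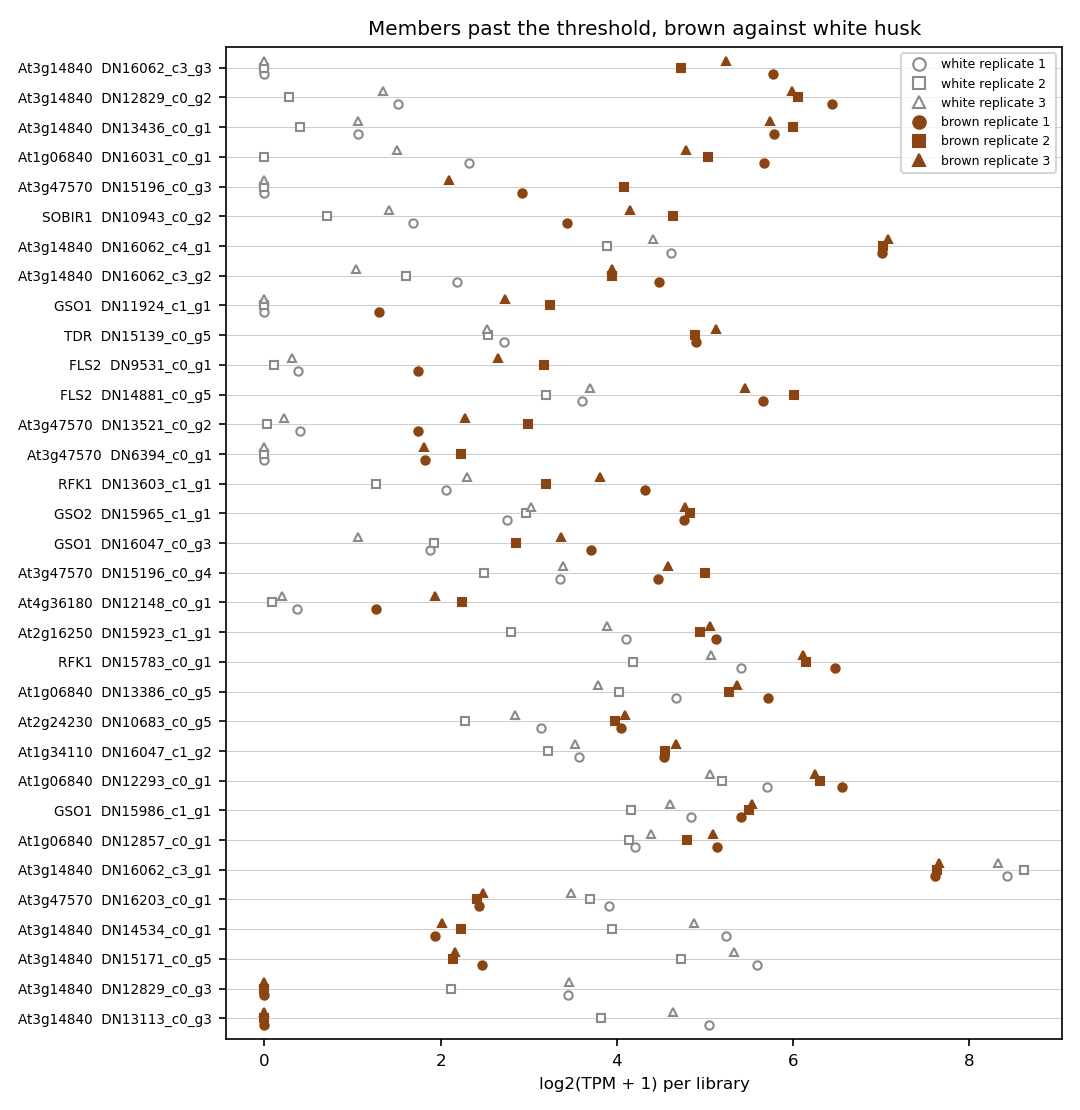
The 33 members past the threshold are plotted by library, with log2(TPM + 1) on the x axis, open grey symbols for white and filled brown symbols for brown libraries, and a small vertical offset by replicate. In every row the 3 white and the 3 brown libraries are apart, and white replicate 2 is often the lowest of the white ones.

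The At3g14840 group was the most abundant and held the largest differences in both directions. At3g14840 of Arabidopsis, also called LIK1, is a kinase that binds the chitin receptor CERK1, and its relatives carry a malectin domain beside the repeats. The group, which also holds RFK1 and At1g53430-like genes, had 52 members, with 7 of 51 tested ones higher and 5 lower and a median log2 fold change of 0.25, which was -0.01 without white replicate 2. The description At3g14840 itself was held by 30 members in 18 clusters, 21 of them under 1000 bases. Of these 5 rose and 5 fell (5 and 3 without brown replicate 3), with a median of 0.11 that turned to -0.06 with TMM factors, -0.03 with quantile normalization and -0.18 without white replicate 2. They made up 39.0% to 39.2% of the family's TPM in white libraries and 34.7% to 36.2% in brown ones. Their sum was 1445, 869 and 1240 TPM in white and 1450, 1490 and 1371 TPM in brown replicates 1, 2 and 3. White replicate 2 was below the other 5 libraries in that sum, while white replicate 1 was within the brown range.

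The most abundant member of the family, TRINITY_DN16062_c3_g1 (1267 bases, At3g14840-like), had 344, 393 and 320 TPM in white and 195, 197 and 201 TPM in brown replicates 1, 2 and 3. It fell by 0.83 on the log2 scale (SE 0.15, limma adjusted p = 0.0209), a call lost without white replicate 3 or any 1 brown library. In the same cluster TRINITY_DN16062_c3_g3 (347 bases) was listed at 0 throughout white husk and had 53.7, 25.5 and 36.8 TPM in brown libraries (adjusted p = 3.35e-04). The third member, TRINITY_DN16062_c3_g2 (709 bases), went from 3.56, 2.04 and 1.05 TPM to 21.3, 14.4 and 14.4 TPM, a log2 fold change of 2.51 ± 0.34 (SE, adjusted p = 0.00885). The cluster thus held a high gene that was lower in brown husk and low genes that were higher there. A further gene of the cluster without a description, TRINITY_DN16062_c3_g4, was also listed at 0 in white and at 4.97, 1.66 and 11 TPM in brown libraries. With the 4 genes summed, the cluster had 348, 395 and 321 TPM in white and 275, 239 and 263 TPM in brown libraries, and did not pass when TPM was summed per cluster and tested over all clusters (log2 fold change -0.45 ± 0.13, adjusted p = 0.0990). The neighbouring cluster of the same assembly component held TRINITY_DN16062_c4_g1 (1237 bases), with 23.5, 13.8 and 20.3 TPM in white and 128, 129 and 134 TPM in brown libraries. It rose by a log2 fold change of 2.73 ± 0.20 (adjusted p = 7.95e-04) and was the highest in brown husk of the members that rose.

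A second cluster with calls in both directions was TRINITY_DN12829_c0, whose 3 genes are all At3g14840-like. TRINITY_DN12829_c0_g2 (502 bases) had 1.85, 0.21 and 1.54 TPM in white and 85.8, 65.5 and 62.7 TPM in brown libraries, a log2 fold change of 5.12 ± 0.34 (standard error, SE; by limma, adjusted p = 5.84e-04). TRINITY_DN12829_c0_g3 (510 bases) was at 9.92, 3.34 and 10 TPM in white libraries and listed at 0 throughout brown husk (adjusted p = 0.0106, not past the threshold without brown replicate 3). The third gene, TRINITY_DN12829_c0_g1, had 12.7, 9.07 and 11.8 TPM and 16.8, 8.70 and 14.8 TPM (adjusted p = 0.695), so its groups overlapped. Here the sum did pass, with 24.5, 12.6 and 23.3 TPM in white and 103, 74.2 and 77.6 TPM in brown libraries (log2 fold change 2.06 ± 0.27, adjusted p = 0.00944). Over the family, 7 of the 33 called members shared a cluster with at least 1 gene called in the opposite direction, and these 2 clusters held members called both ways.

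Other called At3g14840-like members had no member of their cluster called in the opposite direction. TRINITY_DN13436_c0_g1 (944 bases, partial) had 1.08, 0.32 and 1.09 TPM in white and 53.9, 62.9 and 52.5 TPM in brown libraries (log2 fold change 5.0 ± 0.24, limma adjusted p = 1.34e-04). Its mate TRINITY_DN13436_c0_g2 (783 bases) was well above 0 in both varieties, at 104, 53.0 and 97.0 TPM and 141, 151 and 118 TPM (adjusted p = 0.161). Summed, this cluster passed, with 106, 56.9 and 101 TPM in white and 206, 228 and 187 TPM in brown libraries (log2 fold change 1.28 ± 0.24, adjusted p = 0.0283). TRINITY_DN13113_c0_g3 (588 bases) was at 32.1, 13.1 and 23.8 TPM in white and listed at 0 in brown libraries (adjusted p = 0.00121). The most abundant gene of that cluster, TRINITY_DN13113_c0_g1 (1019 bases), had 139, 59.3 and 108 TPM and 179, 173 and 156 TPM (adjusted p = 0.166), and TRINITY_DN13113_c0_g2 had 3.77 to 6.37 TPM over the 6 libraries. The sum of the DN13113_c0 cluster did not pass (log2 fold change 0.50 ± 0.28, adjusted p = 0.349). The falls also included TRINITY_DN15171_c0_g5 (857 bases, partial), with 47.3, 25.6 and 39.3 TPM in white and 4.54, 3.40 and 3.49 TPM in brown libraries, which fell by 2.96 on the log2 scale (SE 0.25, adjusted p = 0.00149). A cluster mate of it, the At1g53430-like TRINITY_DN15171_c0_g1 (3848 bases), had 39.9, 21.2 and 33.6 TPM and 58.0, 66.2 and 60.1 TPM and lay just outside the threshold (adjusted p = 0.0515). The sum of that cluster did not pass either (adjusted p = 0.388). TRINITY_DN14534_c0_g1, at 3295 bases the longest of the falling members, had 36.8, 14.4 and 28.3 TPM in white and 2.82, 3.69 and 3.03 TPM in brown libraries. It fell by 2.63 on the log2 scale (SE 0.34, adjusted p = 0.00722), and its cluster, with 1 member, fell too (log2 fold change -2.11 ± 0.34, adjusted p = 0.0173).

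**Figure D3:**
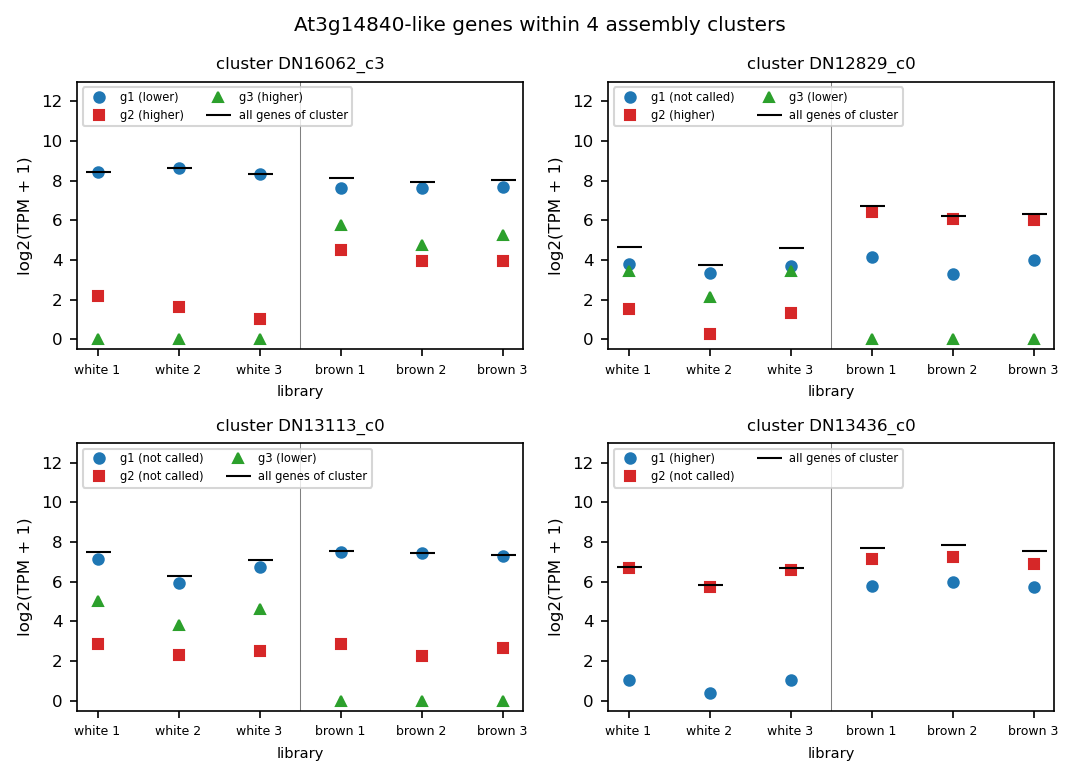
Members of 4 assembly clusters and the sum over all genes of each cluster (black bars) are plotted by library as log2(TPM + 1). In DN16062_c3 and DN12829_c0 members differ in opposite directions between white and brown libraries, and in DN13113_c0 and DN13436_c0 a member close to 0 in one variety stands beside an abundant member that did not pass the threshold.

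Of the abundant members, TRINITY_DN13756_c0_g1 (At3g14840-like, 1361 bases) was next after TRINITY_DN16062_c3_g1, with 218, 103 and 190 TPM in white and 254, 288 and 257 TPM in brown libraries. Its groups did not overlap, but it did not pass (log2 fold change 0.71 ± 0.28, limma adjusted p = 0.193). RFK1-like genes of the same group had 5 members with log2 fold changes of 0.87 to 1.89, and 2 of them rose. TRINITY_DN15783_c0_g1 (2668 bases) had 41.5, 17.1 and 32.6 TPM in white and 87.7, 70.0 and 68.0 TPM in brown libraries (adjusted p = 0.0459). This put it just inside the threshold, and the call was lost without white replicate 3 or any 1 brown library. TRINITY_DN13603_c1_g1 (790 bases) had 3.18, 1.41 and 3.93 TPM and 18.9, 8.15 and 13 TPM (adjusted p = 0.0339) and lost its call whichever library was left out.

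The immune receptor group was named for FLS2 and EFR, the Arabidopsis receptors of bacterial flagellin and elongation factor Tu, and for At3g47570 of the same subfamily. The group also held 4 At2g24130-like genes, of which 1 had a positive log2 fold change (median -0.93) and none was called. Its 43 members fell into 27 assembly clusters, and 29 of them were under 1000 bases. Of its 42 tested members 6 rose and 1 fell, 32 had a positive value, and the median log2 fold change was 0.79. Leaving out 1 library gave 1 to 4 rises, with 1 without white replicate 3, and 0 to 2 falls. The median was 0.67 with TMM factors and 0.52 with quantile normalization or without white replicate 2, each above the median of all genes in the same fit. Summed over the 43 members, the group had 212, 106 and 177 TPM in white and 279, 337 and 274 TPM in brown replicates 1, 2 and 3. The FLS2-like TRINITY_DN14881_c0_g5 (408 bases) was its most abundant gene, with 11.2, 8.15 and 12 TPM in white and 49.4, 63.7 and 42.7 TPM in brown libraries. It rose by a log2 fold change of 2.20 ± 0.21 (SE; by limma, adjusted p = 0.00225) and passed whichever library was left out. A cluster mate without a description, TRINITY_DN14881_c0_g7, had 33.7, 12.7 and 26.3 TPM and 84.4, 235 and 147 TPM (adjusted p = 0.0185). The longest FLS2-like gene called, TRINITY_DN9531_c0_g1 (3945 bases), had 0.30, 0.08 and 0.24 TPM in white and 2.35, 8.05 and 5.27 TPM in brown libraries (log2 fold change 2.26 ± 0.42, adjusted p = 0.0253). That call held only when brown replicate 1 was the library left out.

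Among 27 tested At3g47570-like genes 4 rose and 1 fell, and none passed without white replicate 3. TRINITY_DN15196_c0_g3 (266 bases) was listed at 0 in white and at 6.59, 15.9 and 3.28 TPM in brown libraries (limma adjusted p = 0.0178, lost without white replicate 3 or brown replicate 1). Its mate TRINITY_DN15196_c0_g4 (795 bases) moved the same way, from 9.21, 4.64 and 9.44 TPM to 21.2, 31.0 and 22.9 TPM (adjusted p = 0.0209, lost without white replicate 3 or any 1 brown library). Summed, their cluster rose from 14.4, 7.69 and 14.0 TPM to 35.1, 55.4 and 33.8 TPM (log2 fold change 1.71 ± 0.29, adjusted p = 0.0219). The other rises were low. TRINITY_DN13521_c0_g2 (3509 bases) had 0.32, 0.02 and 0.17 TPM and 2.34, 6.98 and 3.85 TPM (adjusted p = 0.0254, lost without any library other than brown replicate 1). TRINITY_DN6394_c0_g1 (635 bases) was listed at 0 in white and at 2.53, 3.68 and 2.52 TPM in brown libraries (adjusted p = 0.0124, lost without white replicate 3 or brown replicate 3). The gene that fell, TRINITY_DN16203_c0_g1 (417 bases), had 14.0, 12 and 10.2 TPM in white and 4.39, 4.31 and 4.58 TPM in brown libraries (log2 fold change -1.26 ± 0.20, adjusted p = 0.0158, lost without white replicate 3 or any 1 brown library). Just outside the threshold was TRINITY_DN13705_c2_g1 (2189 bases), with 4.14, 2.42 and 3.49 TPM and 8.96, 8.98 and 7.04 TPM (adjusted p = 0.0510). None of the 6 EFR-like genes passed by limma, with 2 at an unadjusted p under 0.05 and log2 fold changes from 0.26 to 1.07. Of all tested genes 21.5% were under that unadjusted p.

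SOBIR1 is an adaptor kinase that in Arabidopsis and tomato works with receptor-like proteins that lack a kinase of their own. Its walnut match TRINITY_DN10943_c0_g2 (2170 bases) had 2.22, 0.64 and 1.66 TPM in white and 9.83, 23.8 and 16.7 TPM in brown libraries. Its log2 fold change was 2.80 ± 0.39 (limma adjusted p = 0.0100), a rise that was lost without brown replicate 3. Its brown libraries ranged widely, with brown replicate 2 highest. The other SOBIR1-like gene of the cluster, TRINITY_DN10943_c0_g1 (1991 bases), had 10.3, 8.23 and 10.1 TPM and 13.9, 17.2 and 16.3 TPM (adjusted p = 0.0734). Summed, the cluster rose from 12.5, 8.87 and 11.7 TPM to 23.7, 41.1 and 33.0 TPM (adjusted p = 0.0200). Of the 27 members that rose, brown replicate 2 was the highest library for 11, brown replicate 1 for 11 and brown replicate 3 for 5.

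The group matched by description to receptors of growth and barrier peptides had the highest median of the larger groups. Of its 18 members 12 were under 1000 bases. Members in DN11924_c1, DN15918_c1 and DN16047_c1 shared their cluster with a gene described as receptor-like protein 12, a type without a kinase. GSO1 and GSO2 bind peptides that guide the diffusion barrier of the root and the cuticle of the embryo in Arabidopsis, and At1g34110 is among its receptors of root meristem growth factors. In this group 5 of 18 members rose (1 to 4 when 1 library was left out, 1 without brown replicate 3), none fell, and the median log2 fold change was 1.20 (1.08 with TMM factors, 0.91 with quantile normalization, 1.06 without white replicate 2). The group summed to 135, 125 and 133 TPM in white and 208, 207 and 213 TPM in brown libraries, with 14 members not overlapping between varieties in either direction (background 29.1%). The GSO2-like TRINITY_DN15965_c1_g1 (878 bases) had 5.73, 6.82 and 7.12 TPM in white and 26.1, 27.5 and 26.4 TPM in brown libraries, a log2 fold change of 1.88 ± 0.16 (SE; by limma, adjusted p = 0.00147), and passed whichever library was left out. The GSO1-like TRINITY_DN15986_c1_g1 (3121 bases) had 27.7, 16.9 and 23.4 TPM and 41.4, 44.1 and 45.2 TPM (log2 fold change 0.94 ± 0.19, adjusted p = 0.0334, lost without white replicate 3 or any 1 brown library). The At1g34110-like TRINITY_DN16047_c1_g2 had 10.9, 8.29 and 10.5 TPM and 22.1, 22.3 and 24.5 TPM (adjusted p = 0.0110, lost without brown replicate 3). Both remaining rises were short GSO1-like pieces. TRINITY_DN16047_c0_g3 (208 bases) had 2.67, 2.80 and 1.08 TPM and 12.1, 6.23 and 9.28 TPM (adjusted p = 0.0377, lost without any library other than white replicate 2). TRINITY_DN11924_c1_g1 (211 bases) was listed at 0 in white and at 1.46, 8.46 and 5.62 TPM in brown libraries (adjusted p = 0.0377, lost without any library other than brown replicate 1). Summed per cluster and tested by limma, DN11924_c1 (log2 fold change -0.04 ± 0.14, adjusted p = 0.896) did not pass. Nor did DN16047_c0 (0.38 ± 0.15, adjusted p = 0.205) or DN16047_c1 (0.34 ± 0.13, adjusted p = 0.189). The DN15965_c1 sum (0.93 ± 0.13, adjusted p = 0.0117) and the DN15986_c1 sum (1.25 ± 0.21, adjusted p = 0.0200) did. The most abundant gene of the group was not higher in brown husk. This GSO2-like gene, TRINITY_DN11924_c1_g2 (1698 bases), had 43.4, 56.8 and 46.6 TPM in white and 40.7, 35.4 and 39.9 TPM in brown libraries (log2 fold change -0.33 ± 0.15, adjusted p = 0.260).

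The group of receptors of CLE peptides, which set the size of meristems and the pace of vascular growth, and of their relatives included genes like TDR, BAM1 to BAM3, PXC2, PXC3 and RPK2. Of 16 members 1 rose and none fell, and the median log2 fold change of 0.07 turned to -0.05 with TMM factors, -0.23 with quantile normalization and -0.24 without white replicate 2. The gene that rose, TRINITY_DN15139_c0_g5 (1295 bases), matches TDR, in Arabidopsis the receptor of a CLE peptide that keeps the vascular cambium dividing. It had 5.57, 4.81 and 4.76 TPM in white and 28.9, 28.6 and 33.9 TPM in brown libraries, a log2 fold change of 2.38 ± 0.17 (SE; by limma, adjusted p = 6.61e-04), and passed whichever library was left out. Its assembly cluster held 12 genes, among them ribosomal protein genes of much higher level, so the cluster sum says little of the receptor. An undescribed gene there, TRINITY_DN15139_c0_g8, was lower in brown husk, at 6.82, 8.36 and 10.3 TPM against 0.40, 0.34 and 0.22 TPM (adjusted p = 0.00351). Another undescribed gene of that cluster, TRINITY_DN15139_c0_g2, was higher, listed at 0 in white and at 12.7, 8.89 and 9.99 TPM in brown libraries (adjusted p = 0.00135). The other 3 TDR-like genes had log2 fold changes of -0.59 to 0.06 and the 5 BAM3-like genes -0.29 to 0.07, and none of these passed by limma. None of them had an unadjusted p under 0.05 either.

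A further group held 15 At1g06840-like and 7 At5g49770-like genes, with 3 FEI 1-like genes and 1 FEI 2-like gene. FEI kinases act on wall synthesis in Arabidopsis roots. The FEI-like genes had log2 fold changes of -0.02 to 0.14, and none of them was called. In this group 4 of 26 members rose and none fell, with a median log2 fold change of 0.41 (0.25 with TMM factors, 0.23 with quantile normalization). The count of rises was 3 without white replicate 1, 2 without white replicate 2 and 1 without each of the others. All 4 were At1g06840-like. TRINITY_DN16031_c0_g1 (321 bases) had 4.01, 0 and 1.84 TPM in white and 50, 31.9 and 26.6 TPM in brown libraries (log2 fold change 3.89 ± 0.56, limma adjusted p = 0.0110), a rise that held whichever library was left out. The others differed less. TRINITY_DN12293_c0_g1 (796 bases) had 51.0, 35.6 and 32.4 TPM and 92.8, 77.9 and 75.2 TPM (adjusted p = 0.0246), and TRINITY_DN13386_c0_g5 (1094 bases) had 24.5, 15.3 and 12.8 TPM and 51.4, 37.8 and 40.1 TPM (adjusted p = 0.0285). TRINITY_DN12857_c0_g1 (462 bases) had 17.4, 16.6 and 19.9 TPM and 34.1, 26.9 and 33.1 TPM (adjusted p = 0.0336). The first pair kept their calls only without white replicate 1, and the last only without white replicate 2. FEI 1-like TRINITY_DN15246_c0_g2, the most abundant of the group, had 77.2, 48.9 and 66.0 TPM and 68.3, 64.7 and 76.3 TPM (adjusted p = 0.703), with overlapping groups.

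Smaller groups gave no call by limma. The brassinosteroid receptor-like gene TRINITY_DN13550_c1_g3, matched to the receptor of a steroid hormone of growth, had 80.1, 21.7 and 61.1 TPM in white and 78.2, 69.3 and 82.7 TPM in brown libraries (adjusted p = 0.416). Its groups overlapped, and white replicate 2 was the low one. In the SERK and NIK co-receptor group the At5g10290-like TRINITY_DN15141_c1_g2 had 88.2, 48.8 and 79.2 TPM and 86.0, 73.6 and 76.7 TPM (adjusted p = 0.713), and none of the 3 members had an unadjusted p under 0.05. Among 6 kinases of the At1g35710 and MIK2 group, relatives of an Arabidopsis receptor of defence peptides, 1 had an unadjusted p under 0.05. This was TRINITY_DN12560_c0_g1 (2294 bases), with 36.7, 27.6 and 32.2 TPM and 44.5, 59.3 and 49.6 TPM (adjusted p = 0.0680). Of all tested genes 21.5% had an unadjusted p under 0.05. EMS1-like genes, matched to a receptor of anther development, were low, and the most abundant, TRINITY_DN8573_c0_g2, had 0 to 5.58 TPM with overlapping groups (adjusted p = 0.716). No member was described as ERECTA, HAESA, IKU2 or PEPR.

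Of the 62 remaining members, 4 of 61 tested rose and none fell, and their median log2 fold change of 0.19 equalled that of all genes. Without brown replicate 3 none rose, and without white replicate 2 there were 2 falls beside 4 rises. SOBIR1 was among the 4. The At2g16250-like TRINITY_DN15923_c1_g1 (4670 bases) had 16.2, 5.94 and 13.8 TPM and 33.8, 29.8 and 32.2 TPM (limma adjusted p = 0.0469, the nearest inside the threshold). The At2g24230-like TRINITY_DN10683_c0_g5 (2357 bases) had 7.81, 3.84 and 6.19 TPM and 15.5, 14.8 and 16.0 TPM (adjusted p = 0.0294). Both calls were lost without white replicate 3 or any 1 brown library. The At4g36180-like TRINITY_DN12148_c0_g1 (3336 bases) had 0.29, 0.06 and 0.15 TPM and 1.41, 3.75 and 2.83 TPM (adjusted p = 0.0439, lost without any library other than brown replicate 1). The most abundant remaining member, the inactive kinase TRINITY_DN15409_c0_g3 (At3g03770-like), had 96.1, 45.3 and 82.1 TPM and 82.9, 46.7 and 63.9 TPM (adjusted p = 0.790), with overlapping groups.

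**Figure D4:**
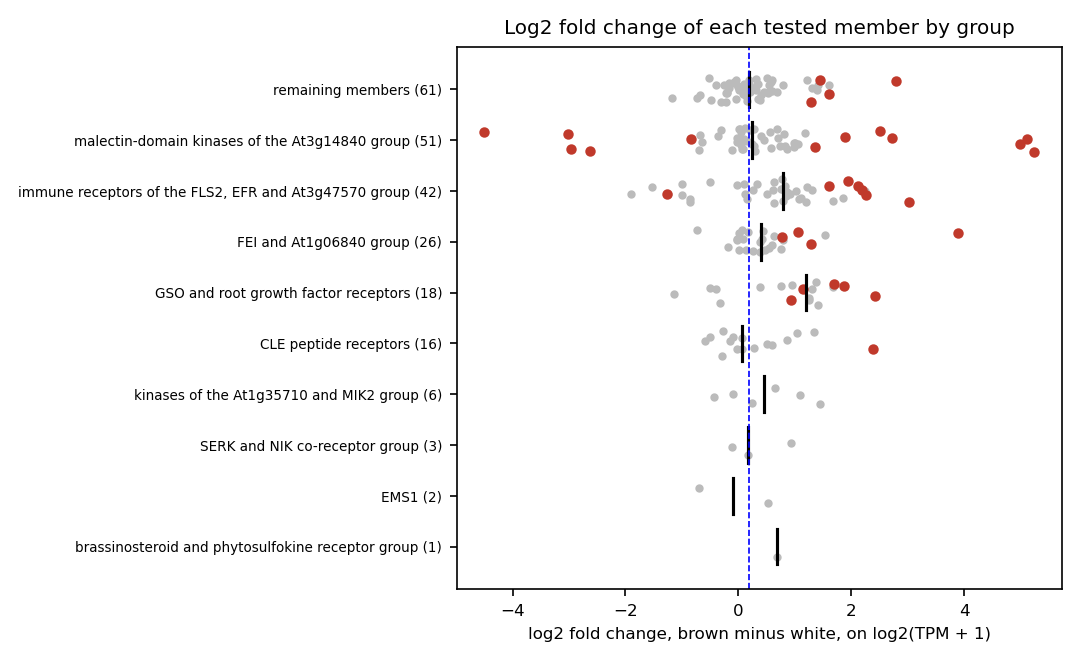
Each point is a tested member, placed by its log2 fold change of brown minus white on log2(TPM + 1), with red for members past the threshold, a black bar for the median of each group and a dashed line for the median of all tested genes at 0.19. The number tested stands beside each group, and red points stand on both sides of 0 in the At3g14840 and immune receptor groups only.

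Length and domain were read as measures that the rule did not use. Of 112 tested members under 1000 bases 16 rose and 4 fell, and of 114 longer ones 11 rose and 2 fell. The background was 3.92% higher and 2.16% lower for tested genes under 1000 bases and 3.68% and 2.17% for longer genes. Among members whose entry named a kinase domain, 11 of 119 tested rose and 2 fell, and among those with a leucine-rich repeat 5 of 49 rose and 3 fell. Of those with a malectin domain 2 of 18 rose and none fell, and of those with no entry or a domain of another kind 9 of 40 rose and 1 fell. When TPM was summed per assembly cluster, 19 of 149 tested clusters with a member were higher and 2 lower, against a background of 3.72% and 1.90% of all clusters. Of the members, 4 were listed at 0 throughout white husk while reaching 1 TPM in each brown library (background 0.813% of listed genes), and 2 showed the reverse (background 0.477%).

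Genes described like partners of these receptors were counted in lists that held no member. Some receptor-like protein 12 genes shared an assembly cluster with members (DN11924_c1, DN12148_c0, DN15918_c1 and DN16047_c1), so reads may have been split between them. Receptor-like proteins without a kinase, a type that works with SOBIR1 in Arabidopsis and tomato, had 6 of 25 tested genes higher (24.0%) and none lower. Whether these genes pair with the SOBIR1-like genes was not tested. Of all tested genes 3.83% were higher and 2.17% lower. A pair described as receptor-like protein 12 had the following values. TRINITY_DN16014_c1_g1 rose from 8.70, 7.37 and 8.54 TPM to 21.4, 24.6 and 20.8 TPM (log2 fold change 1.34 ± 0.16, limma adjusted p = 0.00604), whichever library was left out, and TRINITY_DN12373_c1_g6 from 16.2, 17.6 and 17.3 TPM to 27.7, 45.6 and 34.8 TPM (adjusted p = 0.0282, kept only without white replicate 2 or brown replicate 1). The most abundant of them, TRINITY_DN15918_c1_g1, had overlapping groups (adjusted p = 0.388). The count was 1 to 4 when any 1 library was left out, and 4 higher with 1 lower under TMM factors or quantile normalization. Among 12 co-receptors and regulators 1 rose, the SERK1-like TRINITY_DN15733_c0_g2 (923 bases), from 4.63, 3.41 and 5.71 TPM to 22.6, 37.3 and 27.2 TPM (log2 fold change 2.42 ± 0.25, adjusted p = 0.00327). It passed in all 6 fits that left out 1 library, and 4 of the list rose without white replicate 2. The most abundant SERK1-like gene, TRINITY_DN15575_c2_g4 (2732 bases), had 217, 149 and 195 TPM in white and 182, 135 and 168 TPM in brown libraries (adjusted p = 0.594).

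Of 22 genes for peptide ligands 1 rose. This was a phytosulfokines 5-like gene, TRINITY_DN4460_c0_g1, the precursor of a sulfated growth peptide, with 7.52, 3.17 and 6.28 TPM in white and 22.9, 42.5 and 30.8 TPM in brown libraries (log2 fold change 2.33 ± 0.33, limma adjusted p = 0.0101, lost without brown replicate 3). The most abundant ligand gene, phytosulfokines 6-like TRINITY_DN6835_c0_g1, had 183, 6.57 and 104 TPM and 389, 367 and 312 TPM (adjusted p = 0.186), and the white libraries were far apart. None of 12 hormone receptors such as BRI1 and phytosulfokine receptors passed by limma, with log2 fold changes of 0.13 to 1.98. Of these 12, 4 had an unadjusted p under 0.05, beside 21.5% of all tested genes. Phytosulfokine receptor 2 (TRINITY_DN16755_c0_g1) had 8.74 to 11 TPM in white and 13.7 to 13.9 TPM in brown libraries (adjusted p = 0.179). Downstream of the receptors, none of 35 receptor-like cytoplasmic kinases passed by limma, with 9 at an unadjusted p under 0.05 (21.5% of all tested genes were). The most abundant, an APK1A-like gene (TRINITY_DN13951_c2_g6), had 78.6 to 117 TPM and 115 to 151 TPM (adjusted p = 0.179). None of 9 respiratory burst oxidases, the enzymes of the oxidative burst, passed or had an unadjusted p under 0.05, and the homolog C-like TRINITY_DN13282_c0_g5 had 3.04 to 21.5 and 17.8 to 25.3 TPM (adjusted p = 0.321).

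Cyclic nucleotide-gated channels, which let calcium into the cell, had 6 of 33 tested genes higher (18.2%) and 1 lower (3.03%). The background was 3.83% and 2.17% of all tested genes. The count of channels higher was 0 to 2 when any 1 library was left out and 3 under quantile normalization. The channel 1-like TRINITY_DN15148_c1_g8 had 78.5, 58.1 and 72.5 TPM and 142, 108 and 119 TPM (limma adjusted p = 0.0366, lost whichever library was left out). TRINITY_DN13751_c0_g1, also channel 1-like, fell from 31.2, 14.1 and 28.9 TPM to 5.28, 7.39 and 5.84 TPM (adjusted p = 0.0201, kept only without white replicate 2), and the most abundant, TRINITY_DN15584_c0_g1, had an adjusted p of 0.0816. In the MAP kinase cascade 1 of 46 tested genes rose, MAP kinase 3-like TRINITY_DN13120_c0_g1, a kinase of immune signalling in Arabidopsis, from 73.7, 59.9 and 69.1 TPM to 103, 113 and 106 TPM (log2 fold change 0.66 ± 0.13, adjusted p = 0.0316). That call held only without white replicate 1 or white replicate 2, and the most abundant gene of the cascade, MAP kinase kinase kinase 12 (TRINITY_DN15100_c0_g1), had an adjusted p of 0.690.

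**Figure D5:**
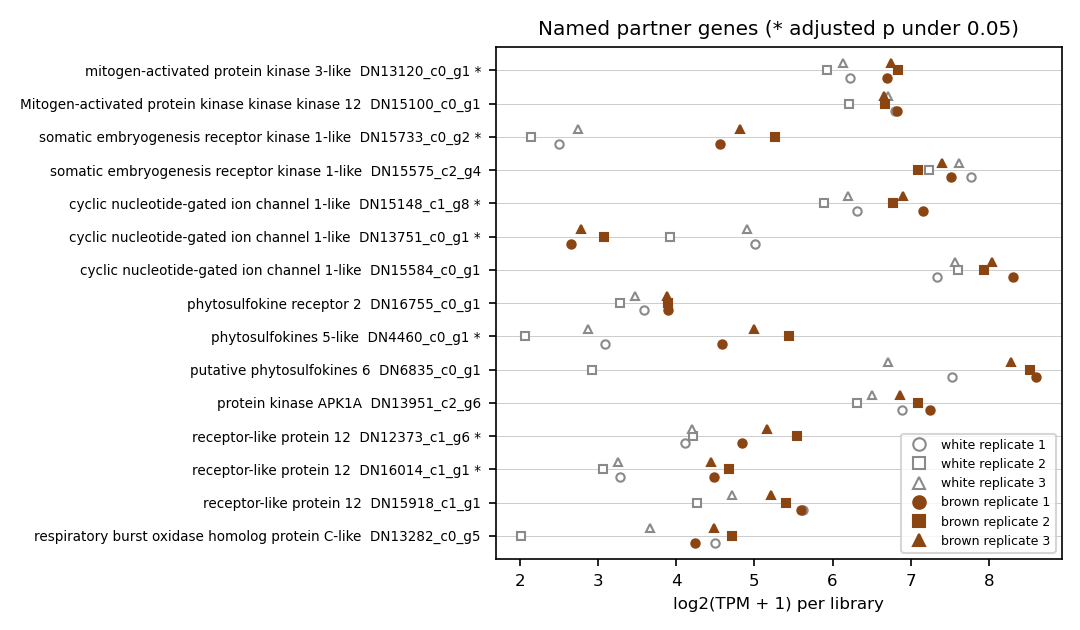
Named ligand, co-receptor, channel and kinase genes are plotted by library as log2(TPM + 1), with open grey symbols for white and filled brown symbols for brown libraries. Genes with a star passed the threshold, and white replicate 2 lies far to the left for phytosulfokines 6 and the respiratory burst oxidase.

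Other receptor kinase families of the same table are given side by side, and differences between families were not tested. Lectin receptor kinases had 13 of 111 tested genes higher (11.7%) and 4 lower (3.60%), and cysteine-rich ones 10 of 30 higher (33.3%) and 4 lower (13.3%). Wall-associated ones had none of 28 higher and 6 lower (21.4%). An unadjusted p under 0.05 by limma was reached by 50 of 111 lectin, 17 of 30 cysteine-rich and 15 of 28 wall-associated genes. It was also reached by 83 of 226 tested LRR members, beside 21.5% of all tested genes.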

How the data were processed

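Husk RNA of 3 white-husked and 3 brown-husked libraries was analysed from the table of TPM values deposited by the authors, 1 row per gene assembled with Trinity, as the identifiers show. The submitters' processing notes name cutadapt and FastQC without versions. How the authors obtained TPM from reads, and with which annotation release, was not given in the sources used here. Since the lowest maximum of any listed gene was 2.01 TPM, only genes above a minimum are listed. Columns summed to 994877 to 996692. Nothing in the labels says that libraries came from separate trees. The p-values set each difference only against the spread among these libraries, and that spread may be technical variation. Gene lengths, deposited in bases, were used as given.

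The 37829 genes that reached 1 TPM in 3 or more libraries were fitted on the log2(TPM + 1) scale with limma 3.58.1 (R 4.3.3, mean-variance trend, no covariates, Benjamini-Hochberg over all genes). The same fit was also run on simulated data with independent noise, no outlying library and effects planted in the higher genes only. That run checks the code and does not measure error rates for these libraries or for low genes. TMM factors, a trimmed mean of ratios to 1 library, were computed from TPM as an alternative. The members, groups and lists were text patterns chosen with earlier results of these data known. Named genes follow a rule: the 12 largest rises and falls among called members with non-overlapping groups and at least 2 TPM in the higher group, the 8 most abundant members, the most abundant of each group, opposite calls within a cluster, neighbours of the threshold, and called or most abundant partners. The 13 called members outside it were added after their values were seen, so that all 33 are given, as were cluster mates, group counts and the members beside them. No sequences of these genes were used here.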

Additional observations from a re-analysis of the deposited data

How the results depend on the processing

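No called member changed sign in any of 15 alternative fits, which reuse the libraries the calls came from. The counts of 27 rises and 6 falls stayed within 1.5 times under other pseudocounts, filters, scaling, no trend and array weights. Applying the rule to Swiss-Prot descriptions too added 17 genes and again gave 27 rises and 6 falls. All members were kept in that larger set, so its counts could not drop and do not test the choice of members. Leaving out each library gave 10 to 22 rises and 3 to 10 falls, with a median log2 fold change of 0.15 to 0.51 and a summed difference of 631 to 1368 TPM, against 1038 TPM with all libraries and 653 with TMM factors. Leaving out members under 1000 bases left 11 rises and 2 falls, of fewer genes, and summing per assembly cluster 19 and 2, over clusters in place of genes. Of the 33 called members 31 were still called with TMM factors, 28 with quantile normalization, 27 at a pseudocount of 0.1, and 13 without brown replicate 3. Over 45 members named or called, 121 of 667 alternative values lost a call, 8 gained one and none reversed. Over all genes the 1450 rises and 819 falls became 735 and 490 with the block described next, 1259 and 1275 with quantile normalization, and 410 to 1255 and 259 to 1013 without each library.

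With the replicate number as a block, 19 members rose and 5 fell, 22 of the 33 among them. Same-numbered libraries deviated together by r = 0.057, 0.056 and 0.011, under the 0.1 set for pairing, although every library correlated best with its own number, a hint from the data and not from the design. TPM keeps no depth, so what depth limits among low members is unknown.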
